A study of Mus musculus with 10 samples.

Results

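The mitochondrial ribosomal protein genes are the nuclear genes whose products build the protein part of the ribosome inside mitochondria. They were taken as every gene of the deposited table whose mouse symbol begins with Mrpl or Mrps followed by a number. This gave 77 genes, 48 named Mrpl for the large subunit and 29 named Mrps for the small subunit, of 27151 genes in all. Rows for 4 pseudogenes with a ps suffix were left out. The series holds RNA-seq of tongue from C57BL/6J mice that had all been exposed to 4NQO, a carcinogen that damages DNA and induces oral lesions. One group of 4 libraries received vehicle. The other group of 6 libraries received SP2509, an inhibitor of the histone demethylase LSD1, and the titles of these libraries read SP2509h without saying what the h means. The comparison of these groups asks how treatment changed RNA levels in carcinogen-exposed tongue. The sources used here give no age, sex, dose or timing, and do not say if libraries came from separate mice. The p-values then measure only how these libraries vary, and some of that variation may be technical. No library of mice without 4NQO was analysed here.

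Mitochondria translate a small set of respiratory chain proteins that are encoded in their own genome. Their ribosome combines rRNAs transcribed from mitochondrial DNA, here mt-Rnr1 for the small and mt-Rnr2 for the large subunit, with proteins that are encoded in the nucleus, made in the cytosol and imported. Part of these proteins have bacterial counterparts, and the others were added in the mitochondrial lineage. Some names predate the structures: Mrps18a and Mrps30 encode proteins that sit in the large subunit, and the product of Mrps36 is now counted as a component of the 2-oxoglutarate dehydrogenase complex. Tongue is rich in skeletal muscle, a tissue with a high demand for respiration.

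Values are normalised reads, that is read counts divided by a size factor per library. Libraries held 9180844 to 14768955 reads in vehicle and 15748571 to 19375555 in SP2509. Genes of the mitochondrial genome took 35.3% to 52.1% of reads in vehicle and 24.0% to 32.2% in SP2509. Skeletal muscle and keratinocyte markers, which define the tissue, were read in every library. SP2509 replicates 1 and 2, and replicates 4 and 5, were far closer to each other than other replicates, so means and SDs are over 4 SP2509 units in which each close pair counts as 1 sample. SP2509 replicate 6 stood apart with the highest muscle markers and the lowest keratinocyte markers, and vehicle replicate 1 had the lowest muscle markers. In bulk tissue, fewer cells of a type and less RNA per cell cannot be told apart.

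The mitochondrial ribosomal protein genes were higher in SP2509 than in vehicle over most of the family, by modest amounts. All 77 passed the filter on low values, which asked for 10 normalised reads or more in 4 or more libraries. In the limma fit over 10 libraries, 17 of the 77 rose and 0 fell at a Benjamini-Hochberg adjusted p under 0.05. Over all 17088 genes tested, 4.95% were called higher and 4.15% lower. Of the 77 genes, 70 had a log2 fold change above 0 and 7 below, with a median of 0.37 beside a median of 0.02 over all genes tested. Every log2 fold change was computed from log2(value + 1). At an unadjusted p under 0.05 the counts were 43 higher and 0 lower. The matching share of all genes tested was not counted for this fit, and it follows below for the fit on 8 units.

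Called genes of the family had log2 fold changes between 0.44 and 1.14. For 20 of the 77 genes (26.0%) every SP2509 library lay above every vehicle library, which held for 6.54% of genes tested. No member had every SP2509 library below every vehicle library, which held for 5.11% of genes tested. The 20 genes included 14 of the 17 that rose, and the other 6 were Mrpl15, Mrpl19, Mrpl30, Mrpl58, Mrps2 and Mrps27. With each close pair counted as 1 sample, the limma fit on 8 units called 0 members and 0 genes in all. The 17 genes then had adjusted p between 0.0718 and 0.130 and a positive fold change, and 41 members had an unadjusted p under 0.05, all higher. Of all 17088 genes tested, 1980 were higher and 1652 lower at that unadjusted p on 8 units. edgeR's quasi-likelihood test on the recovered whole reads of 10 libraries called 16 members, all of them among the 17. It called 5.34% of genes tested higher.

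**Figure D1:**
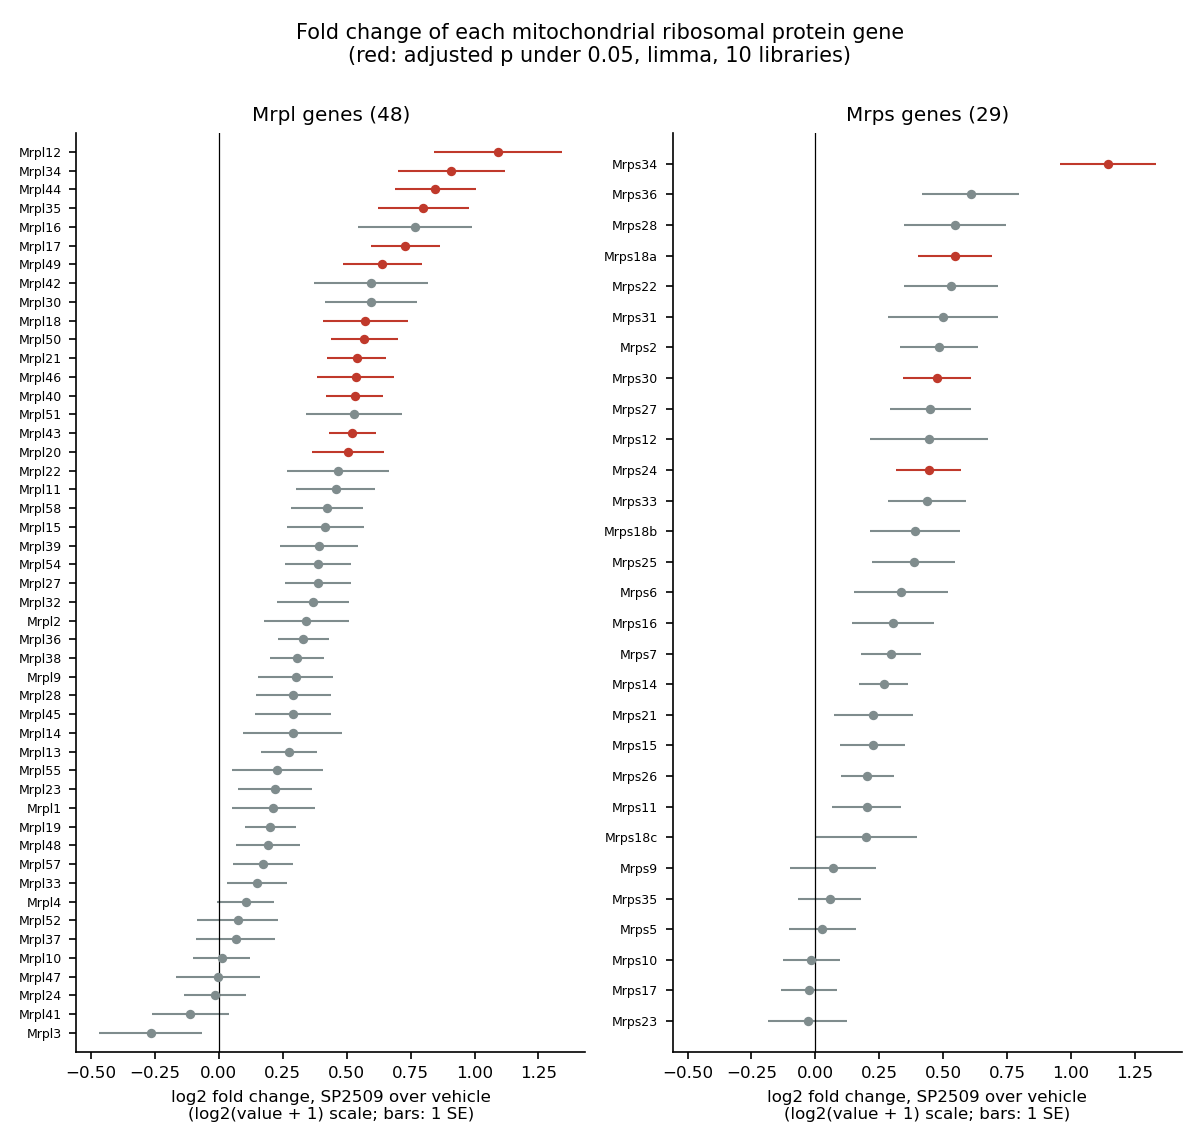
Log2 fold change of SP2509 over vehicle on the log2(value + 1) scale for each of the 77 genes, with bars of 1 SE from limma over 10 libraries; 48 Mrpl genes are on the left and 29 Mrps genes on the right, and red marks an adjusted p under 0.05. The points lie between -0.27 (Mrpl3) and 1.14 (Mrps34), and the 17 red points are all above 0.

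In the large subunit, 13 of the 48 Mrpl genes rose and 0 fell, and their median log2 fold change was 0.38. The gene with the largest change among them was Mrpl12 (chr11:120484613-120489065, plus strand, GRCm38), which encodes the stalk protein that recruits translation factors and also binds the mitochondrial RNA polymerase. Mrpl12 read 191, 462, 397 and 325 normalised reads in vehicle replicates 1 to 4, and 593 to 1204 in SP2509 with a median of 633. All 6 SP2509 libraries lay above all 4 vehicle libraries, with replicate 6 far above the other 5. Mean levels were 344 ± 116 (SD, n = 4) in vehicle and 766 ± 292 (SD, n = 4 units) in SP2509. On the log2 scale Mrpl12 was higher by 1.09 ± 0.25 (SE, limma adjusted p = 0.0243). Without SP2509 replicate 6 the log2 fold change was 0.93 (limma adjusted p = 0.0101). Over the alternatives run, listed in the closing sections, the call of Mrpl12 was kept in 24 and lost in 7. Those kept include an adjusted p under 0.1 in the same fit, where no call could be lost, here and for the genes below. Among those lost were the fits without vehicle replicate 1 (0.83, limma adjusted p = 0.0726) and on 8 units (1.16, limma adjusted p = 0.0851). With a muscle score in the fit the log2 fold change was 0.62 (limma adjusted p = 0.0310).

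Mrpl34, a small protein with a bacterial counterpart, read 193, 378, 242 and 240 in vehicle and 379 to 728 in SP2509 with a median of 471. The highest vehicle library lay just under the lowest SP2509 library, so the groups touched without overlapping. The log2 fold change was 0.91 ± 0.21 (SE, limma adjusted p = 0.0245). Mrpl44 (chr1:79776018-79781445, plus strand) encodes a mitochondria-specific protein with a fold like that of ribonuclease III, and variants of the human gene cause a mitochondrial cardiomyopathy. It read 148, 138, 139 and 171 in vehicle and 214 to 378 in SP2509 with a median of 259. The vehicle libraries were tightly grouped and all lay below the SP2509 libraries, and Mrpl44 rose by 0.85 ± 0.16 on the log2 scale (SE, limma adjusted p = 0.0136).

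Mrpl35 and Mrpl17, both with bacterial counterparts, rose by 0.80 ± 0.18 and 0.73 ± 0.14 (SE) on the log2 scale (limma adjusted p = 0.0213 and 0.0135). Mrpl35 read 154, 236, 267 and 217 in vehicle and 304 to 516 in SP2509 with a median of 370. Mrpl17 read 282, 415, 351 and 458 in vehicle and 545 to 686 in SP2509 with a median of 618. Neither gene had overlapping groups.

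Among the smaller changes, Mrpl43 had the lowest SE. This mitochondria-specific protein gene (chr19:45004829-45006442, minus strand) read 354, 379, 370 and 398 in vehicle and 498 to 582 in SP2509 with a median of 548. The spread within each group was small beside the gap between them, and the log2 fold change was 0.52 ± 0.09 (SE, limma adjusted p = 0.0125). Mrpl40 and Mrpl21 had wider errors: vehicle lay at 159 to 184 and 235 to 277, and SP2509 at 221 to 262 and 325 to 430. Their log2 fold changes were 0.53 ± 0.11 and 0.54 ± 0.12 (SE, limma adjusted p = 0.0182 and 0.0199). In Mrpl40 SP2509 replicate 6, at 246, was not the highest library.

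Mrpl50, Mrpl49, Mrpl46 and Mrpl20 completed the large-subunit genes named by rule, with log2 fold changes of 0.57, 0.64, 0.53 and 0.50 (limma adjusted p between 0.0248 and 0.0450). Groups did not overlap for Mrpl50 and Mrpl46, which encode mitochondria-specific proteins. They overlapped for the mitochondria-specific Mrpl49 (vehicle up to 284, SP2509 from 275) and for Mrpl20, which has a bacterial counterpart (vehicle up to 611, SP2509 from 542), in each case through 1 high vehicle library. Over the alternatives run, the call was lost in 9 for Mrpl50, 14 for Mrpl49, 20 for Mrpl46 and 22 for Mrpl20. It was kept in 22, 17, 11 and 9. The last gene called, Mrpl18, is named outside the rule after its values were seen. It had a log2 fold change of 0.57 (limma adjusted p = 0.0495), and its groups also overlapped through 1 vehicle library, at 599.

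The products of Mrps18a and Mrps30 sit in the large subunit in spite of their names, and both genes rose. Mrps18a (chr17:46110986-46128910, plus strand) read 245, 395, 351 and 334 in vehicle and 411 to 562 in SP2509 with a median of 477. Mrps30 read 191, 235, 242 and 238 in vehicle and 258 to 387 in SP2509 with a median of 306. The groups of both genes were separate, with log2 fold changes of 0.55 ± 0.15 and 0.48 ± 0.13 (SE, limma adjusted p = 0.0390 and 0.0447). Over the alternatives run, their calls were lost in 19 and 20 and kept in 12 and 11. Counted by structure, 15 of 50 large-subunit genes rose, with a median log2 fold change of 0.39. Of the 30 Mrpl genes with bacterial counterparts 7 rose (median 0.34), and of the 18 mitochondria-specific Mrpl genes 6 rose (median 0.41). Mrpl58, an enzyme of the peptidyl-tRNA hydrolase type that became part of the large subunit, was not called (0.42, limma adjusted p = 0.0775), although its SP2509 libraries (568 to 728) all lay above vehicle (343 to 562).

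**Figure D2:**
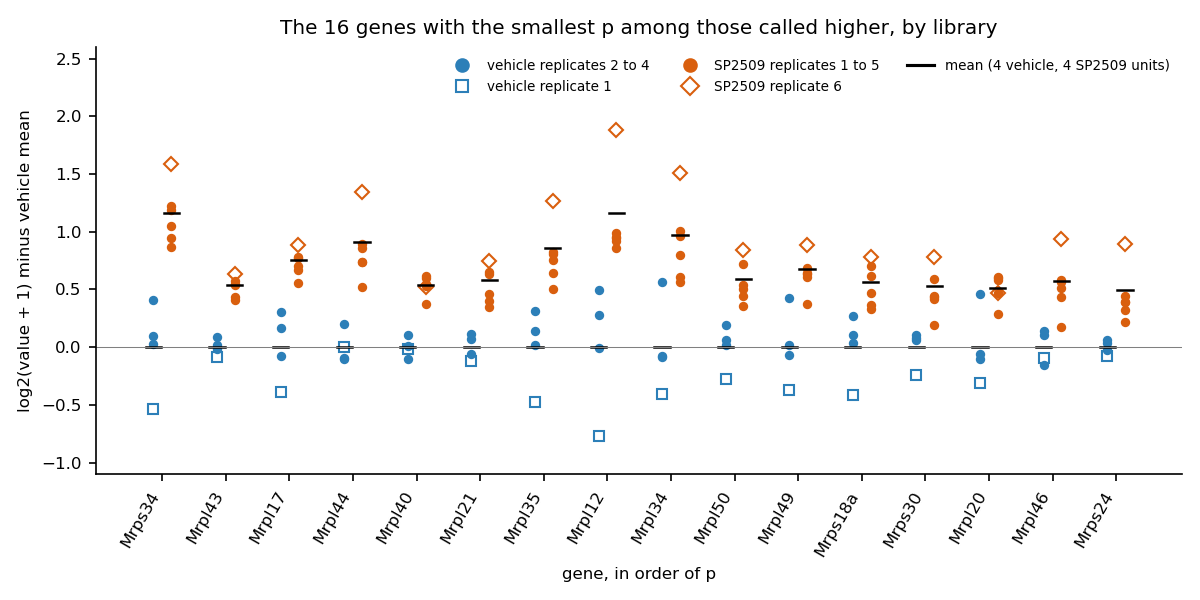
The 16 genes with the smallest p among those called higher, in order of p; each point is 1 library, plotted as log2(value + 1) minus the vehicle mean of the gene, with vehicle in blue and SP2509 in orange, and black bars for the mean of 4 vehicle libraries and 4 SP2509 units. Open diamonds (SP2509 replicate 6) are at the top for most genes and open squares (vehicle replicate 1) at or near the bottom.

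Promoter windows are shown for Mrpl12, Mrpl44, Mrpl43 and Mrps18a, which rose and hold a motif of a factor known from nuclear genes of mitochondrial proteins. Mrpl17, Mrpl18, Mrpl21, Mrpl34, Mrpl35, Mrpl49 and Mrps24 also rose and hold such a motif, and their windows are not shown. RefSeq (GRCm38.p6) gave 74 windows, 250 bases before to 50 after a start, for 68 of the 77 genes, and a window for 16 of the 17 that rose. The motifs searched on both strands were GCGCA, any base and then GCGC for NRF1, CCGGAAG for ETS factors such as GABP, and AAGATGGC for YY1, and capitals mark them below. The NRF1 motif of Mrpl12 starts at -81 and that of Mrpl44 at -35 from the start site. Mrpl43 has an ETS motif at -56 and another at -12. Mrps18a has an ETS motif at -26 and a YY1 motif at 11. The windows are chr11:120484387-120484686 (plus strand), chr1:79775768-79776067 (plus), chr19:45006393-45006692 (minus) and chr17:46110754-46111053 (plus), each printed 5′ to 3′ on the strand of its gene.
Mrpl12: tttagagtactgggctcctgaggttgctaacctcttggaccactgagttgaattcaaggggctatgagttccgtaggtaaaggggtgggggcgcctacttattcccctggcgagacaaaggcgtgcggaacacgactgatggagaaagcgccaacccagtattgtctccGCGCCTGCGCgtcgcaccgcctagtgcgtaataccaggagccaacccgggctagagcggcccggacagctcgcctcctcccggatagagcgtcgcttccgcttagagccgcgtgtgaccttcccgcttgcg
Mrpl44: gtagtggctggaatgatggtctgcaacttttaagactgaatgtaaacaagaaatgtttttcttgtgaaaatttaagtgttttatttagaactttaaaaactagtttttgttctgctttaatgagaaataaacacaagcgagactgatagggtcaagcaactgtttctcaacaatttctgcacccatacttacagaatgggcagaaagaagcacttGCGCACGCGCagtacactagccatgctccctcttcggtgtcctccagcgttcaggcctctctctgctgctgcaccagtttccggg
Mrpl43: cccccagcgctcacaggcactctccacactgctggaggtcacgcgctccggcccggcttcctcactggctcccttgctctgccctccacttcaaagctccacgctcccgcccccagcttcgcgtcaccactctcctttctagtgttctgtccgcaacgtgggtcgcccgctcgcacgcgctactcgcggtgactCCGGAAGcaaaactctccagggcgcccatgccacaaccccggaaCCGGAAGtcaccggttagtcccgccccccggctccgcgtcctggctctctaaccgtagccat
Mrps18a: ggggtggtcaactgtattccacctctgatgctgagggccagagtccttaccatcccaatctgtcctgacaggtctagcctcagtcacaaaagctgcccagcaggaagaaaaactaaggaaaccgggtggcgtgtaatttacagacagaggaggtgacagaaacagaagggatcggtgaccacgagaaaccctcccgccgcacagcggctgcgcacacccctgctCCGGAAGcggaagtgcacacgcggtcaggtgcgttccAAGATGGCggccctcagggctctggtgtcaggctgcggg

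Across the family the NRF1 motif was in 17.6% of the 74 windows, beside 4.60% of 32851 windows of all genes. The ETS motif was in 33.8% beside 8.86%, and the YY1 motif in 16.2% beside 2.75%. At least 1 of the 3 was in 42 of the 74 windows (56.8%), beside 14.7% of all windows. Counted by gene, that held for 42 of the 68 genes with a window and for 11 of the 16 called genes with a window. A looser YY1 motif, AANATGGC, which takes in the stricter one, was in 28.4% beside 6.05%. GGGCGG, the GC box, was in 52.7% beside 35.7%, CCAAT in 39.2% beside 37.4%, CACGTG, the E-box, in 9.46% beside 7.15%, and TGACGTCA, the cAMP response element, in 2.70% beside 1.79%. A match describes these letters, and no binding was measured.

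In the small subunit the changes were of similar size and fewer passed the test. Of 29 Mrps genes 4 rose and 0 fell, with a median log2 fold change of 0.33. Of the 16 with bacterial counterparts 1 rose (median 0.25), and of the other 13 Mrps genes 3 rose (median 0.45). This split goes by symbol: the 3 are Mrps34, Mrps18a and Mrps30, and the last 2 encode large-subunit proteins. The other 13 were not shown to lack bacterial counterparts, and the difference was not tested. Without Mrps18a, Mrps30 and Mrps36, which structure places elsewhere, 2 of 26 rose (Mrps34 and Mrps24) and the median was 0.30. Whether the subunits differed in their response was not tested.

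Mrps34 (chr17:24895116-24897502, plus strand) had the smallest p and the highest fold change of the family. It encodes a mitochondria-specific small-subunit protein, and variants of the human gene cause a combined respiratory chain deficiency with Leigh syndrome. It read 113, 177, 168 and 219 in vehicle and 300 to 496 in SP2509 with a median of 360. Every SP2509 library lay above every vehicle library. Means were 169 ± 43.6 (SD, n = 4) and 377 ± 83.6 (SD, n = 4 units), and the rise was 1.14 ± 0.19 on the log2 scale (SE, limma adjusted p = 0.0118, and 0.0718 on 8 units). Mapk8ip3, which overlaps Mrps34 on the other strand, had a log2 fold change of -0.47 (limma adjusted p = 0.0325).

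Mrps24, the other small-subunit gene called, has a bacterial counterpart at the mRNA entry of the ribosome. It read 508, 548, 560 and 525 in vehicle and 621 to 994 in SP2509 with a median of 702, with no overlap. Its log2 fold change was 0.44 ± 0.13 (SE, limma adjusted p = 0.0479). Over the alternatives run, the call was lost in 20 and kept in 11. Mrps36 was not called (0.61 ± 0.19, SE, limma adjusted p = 0.0617), and its lowest SP2509 library, at 311, lay below the highest vehicle library, at 315.

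Mrps18b and Mrps18c are the small-subunit relatives of Mrps18a, and neither was called. Mrps18b read 89.0 to 114 in vehicle and 97.9 to 164 in SP2509, a log2 fold change of 0.39 with a 95% interval of -0.01 to 0.79. The interval spans 0 although the unadjusted limma p was 0.0454, because intervals here are wider than limma's own. Mrps18c read 121 to 242 in vehicle and 149 to 214 in SP2509, and its interval ran from -0.26 to 0.65. Its fold change, 0.20, was below 0 at -0.05 when a muscle score was added to the fit.

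At the other end of the family, 11 of the 77 genes had a log2 fold change within 0.1 of 0, and 7 were below 0. The lowest was Mrpl3, a core protein that reaches toward the peptidyl transferase centre. It read 1072, 725, 943 and 761 in vehicle and 584 to 744 in SP2509 replicates 1 to 5, and 1223 in replicate 6. The log2 fold change was -0.27 ± 0.20 (SE, limma adjusted p = 0.408), and without SP2509 replicate 6 it was -0.42 (limma adjusted p = 0.0370), the only member called lower under any setting run. Mrpl41, a mitochondria-specific protein, stood at -0.11 (95% interval -0.46 to 0.24). The other 5 genes below 0 were Mrpl24, Mrpl47, Mrps10, Mrps17 and Mrps23, with the lowest of them at -0.03 (Mrps23).

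Summed over genes, Mrpl reads were 23334 ± 2622 (SD, n = 4) in vehicle and 30374 ± 4916 (SD, n = 4 units) in SP2509. Mrps reads summed to 11728 ± 1279 and 14479 ± 2013. The ratio of the sums was 2.01, 1.98, 2.04 and 1.93 in vehicle replicates 1 to 4 and 2.04 to 2.16 in SP2509 with a median of 2.09. These ratios differ little in size, and the lowest SP2509 value (2.041) was just above the highest vehicle value (2.038). By medians over genes the difference between subunits was 0.43 ± 0.13 on the log2 scale in vehicle and 0.39 ± 0.07 in SP2509, within the spread between libraries. Members took 0.362% to 0.423% of the reads outside mitochondrial genes in vehicle and 0.412% to 0.489% in SP2509.

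Most of the family was ordered alike across libraries. SP2509 replicate 6 was the highest library for 60 of the 77 genes (77.9%), beside 21.1% of genes tested, and vehicle replicate 1 was the lowest for 38 (49.4%), beside 19.3%. The median deviation of the 77 genes from their vehicle means was -0.15, 0.17, 0.07 and -0.09 on the log2 scale in vehicle replicates 1 to 4. It was 0.29, 0.16, 0.32, 0.36 and 0.33 in SP2509 replicates 1 to 5 and 0.68 in replicate 6. Vehicle replicate 2 thus lay just above SP2509 replicate 2, and the other 5 SP2509 libraries lay above all vehicle libraries. Genes whose highest library was a vehicle library numbered 6: Mrpl10, Mrpl24, Mrps10, Mrps17, Mrps18c and Mrps35.

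The lowest and the highest library for muscle markers were also those for the members, but the order in between differed. The markers' mean log2 level over 13 tested markers, of which none was at 0 in vehicle, was 12.33 to 13.66 in vehicle and 13.12 to 14.78 in SP2509, lowest in vehicle replicate 1 and highest in SP2509 replicate 6. SP2509 replicate 3, at 13.12, lay below vehicle replicates 2 (13.25) and 3 (13.66), although its members stood above those of every vehicle library. The markers' median log2 fold change was 0.80, with 0 of 13 called by limma. With a muscle score as a covariate, limma called 9 members (11.7%) higher, beside 7.30% of genes tested, and the members' median log2 fold change was 0.22. Without SP2509 replicate 6, 23 members rose, 1 fell and the median was 0.30, while 11.5% of genes tested were called higher. Without vehicle replicate 1, 4 rose (Mrps34, Mrpl43, Mrpl17 and Mrpl44) and the median was 0.29, with 171 of 17088 genes tested called higher. Keratinocyte markers, by contrast, were lowest in SP2509 replicate 6 (11.22, beside 11.77 to 12.23 in vehicle and 12.33 to 13.44 in SP2509 replicates 1 to 5). With a keratinocyte score as a covariate 37 members were called higher, beside 9.05% of genes tested. Salivary gland markers, of which 5 of 12 were tested, stood at a mean log2 level of 13.89 and 13.88 in SP2509 replicates 4 and 5, beside 2.22 to 6.01 in vehicle and 2.42 to 6.65 in the remaining SP2509 libraries. Without replicates 4 and 5 the members' median was 0.35 and 6 members were called higher, beside 1.28% of genes tested. The part of these cell types in the members' values was not tested.

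**Figure D3:**
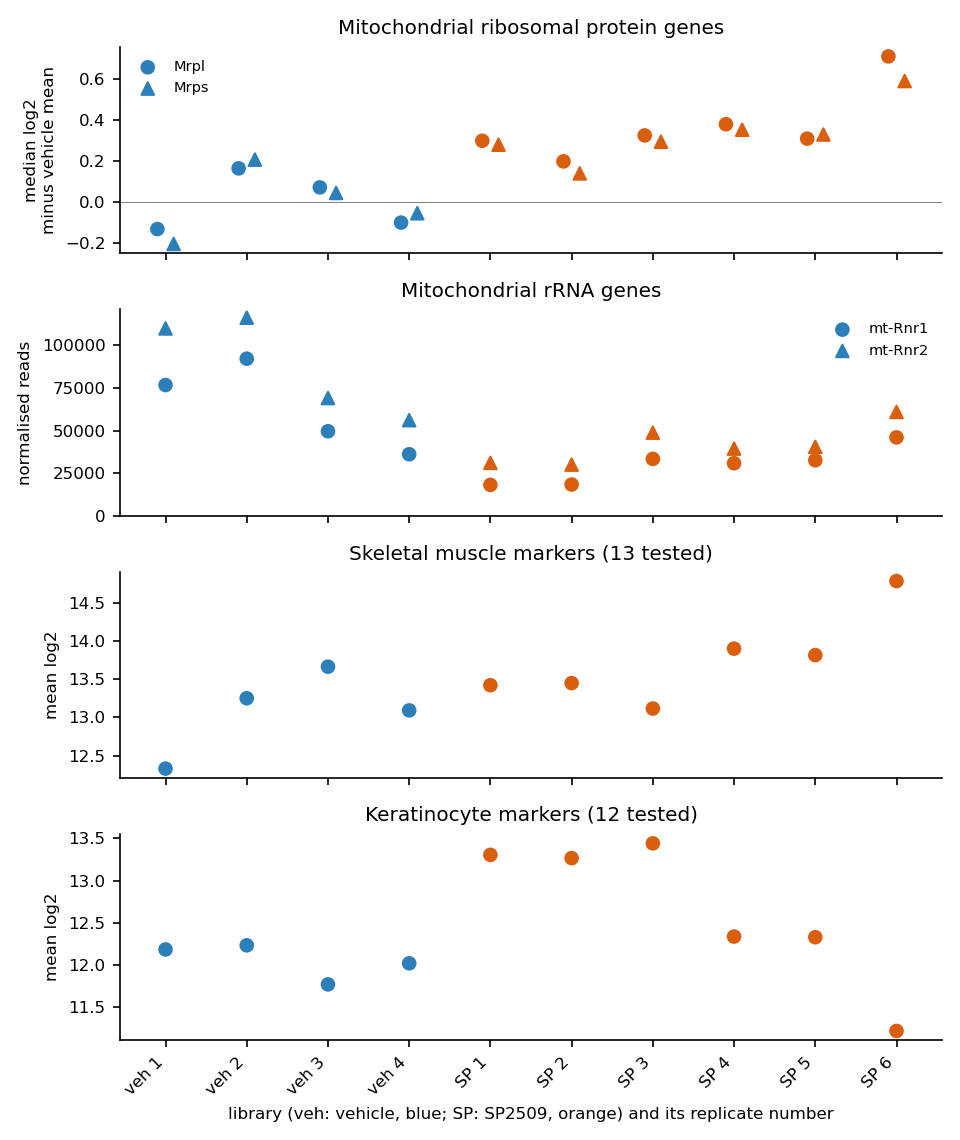
Values by library, vehicle in blue and SP2509 in orange: from top to bottom, the median log2 deviation of Mrpl (circles) and Mrps (triangles) genes from their vehicle means, normalised reads of mt-Rnr1 (circles) and mt-Rnr2 (triangles), and the mean log2 level of skeletal muscle and keratinocyte markers. SP2509 replicate 6 is highest in the top panel (0.71 for Mrpl) and in the muscle panel (14.78) and lowest in the keratinocyte panel (11.22).

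Counts and medians depended on the scaling. Scaling to the reads outside mitochondrial genes shifted the median of all genes tested to -0.13 and that of the members to 0.22, so that the gap between them stayed at 0.35. It left 8 members called higher and 0 lower, and the genes called in all became 297 higher and 1442 lower, beside 846 and 709. TMM scaling gave 28 members higher and 0 lower, with 7.54% of genes tested called higher. With quantile normalization 11 members were called higher and 0 lower (3.82% of genes tested), the members' median was 0.28, and the gap to all genes narrowed to 0.28. The median of the members was above 0 under each of the scalings run, between 0.22 and 0.43.

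Levels were compared between genes per kb of exon, with the exons of all annotated transcripts of a gene merged. This length can exceed that of the transcripts expressed, so the order of genes depends in part on the annotation. In vehicle the highest was Mrps21, at 1233 normalised reads per kb (984 to 1615 over libraries), followed by Mrpl52 at 765, Mrpl14 at 755 and Mrpl54 at 754. The ranges of the last 3 overlapped widely (636 to 936 for Mrpl52, 498 to 987 for Mrpl14), so their order is not resolved. The lowest were Mrps22 at 30.2, Mrps30 at 34.0 and Mrps31 at 43.3, and the ranges of Mrps22 (21.9 to 43.5) and Mrps30 (28.7 to 36.3) overlapped too. The range of Mrps31 (34.4 to 54.6) overlapped both and that of Mrpl32 (38.0 to 49.2), the next gene up, so the order of the lowest genes is not resolved. The median was 176 over Mrpl genes and 112 over Mrps genes. Of these low and high genes only Mrps30 was called. Level did not sort the genes that rose: 6 of the 26 genes with the highest level over all samples, 7 of the next 26 and 4 of the 25 lowest were called, with median log2 fold changes of 0.32, 0.44 and 0.37. Depth behind a value ran from 48 reads (Mrps18b in vehicle replicate 1) to 2857.

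**Figure D4:**
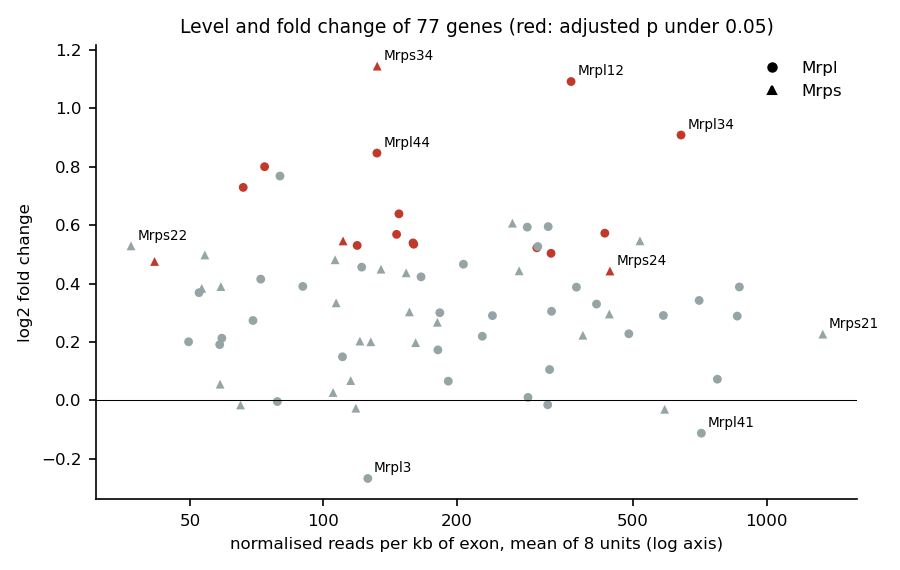
Log2 fold change of the 77 genes against their level, as normalised reads per kb of exon averaged over 4 vehicle libraries and 4 SP2509 units on a log axis; circles are Mrpl and triangles Mrps genes, and red marks an adjusted p under 0.05. Red points span levels from 41.6 to 641 per kb, and Mrps21, at the far right, was not called.

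Many of these genes share their start region with a neighbour. A protein-coding gene on the other strand started within 1000 bases of 33 of the 77 genes (42.9%), beside 14.5% of 14570 tested protein-coding genes. The 29 tested neighbours that are not of the family had a median log2 fold change of -0.13, with 3 called higher (Psma2, Rab6a and Tcp1) and 2 lower (Ncapd2 and Gga3). The 29 family genes beside them had a median of 0.39. The family gene had the higher fold change in 24 of the 29 pairs. Mrpl43 and its neighbour Twnk, the mitochondrial DNA helicase, stood at 0.52 and -0.03, and Mrpl21 and Ighmbp2 at 0.54 and -0.30.

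Mrpl46 and Mrps11, a large- and a small-subunit gene, lie as such a pair with starts 412 bases apart in GENCODE M21. Mrps11 read 256, 293, 269 and 206 in vehicle and 265 to 359 in SP2509 with a median of 277, so its groups overlapped. Its log2 fold change was 0.20 (95% interval -0.11 to 0.51), beside 0.53 (0.19 to 0.88) for Mrpl46. The RefSeq windows of the 2 genes have 141 bases in common at chr7:78783040-78783180 (plus strand), shown because both windows hold them. RefSeq and GENCODE starts differ here: the GENCODE start of Mrpl46, at 78783531, lies outside this stretch. The stretch holds no NRF1, ETS or YY1 motif, and the YY1 motif of Mrps11 lies outside it.
Mrps11 and Mrpl46, shared stretch: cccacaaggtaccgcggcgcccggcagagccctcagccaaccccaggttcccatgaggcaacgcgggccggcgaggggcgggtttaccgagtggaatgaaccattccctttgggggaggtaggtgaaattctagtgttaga

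In all, 41 of the 77 genes overlap another annotated gene, as do 13 of the 17 that rose. The sources used here do not name the strand setting of the counting, so reads of such genes and of a partner on the other strand cannot be told apart. For Mrpl12 that partner, the antisense gene Gm16755, read 14.2 ± 9.69 (SD, n = 4) in vehicle. For Mrpl18 it is Tcp1, which also rose (0.72, limma adjusted p = 0.0118). Tcp1 read 903 on average in vehicle, beside 471 for Mrpl18. Mrps34 also overlaps Nme3 on its own strand.

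The rRNA partners of these proteins went the other way. The large-subunit rRNA gene mt-Rnr2 fell by 1.05 on the log2 scale (SE 0.28, limma adjusted p = 0.0378, and 0.149 on 8 units). It read 109919, 116230, 69035 and 56055 in vehicle and 29947 to 60893 in SP2509 with a median of 39874. Only SP2509 replicate 6 lay above the lowest vehicle library. The call was lost when any 1 library other than vehicle replicate 4 or SP2509 replicate 6 was left out (limma adjusted p between 0.0592 and 0.119), with log2 fold changes of -0.89 to -1.15. mt-Rnr1 had a log2 fold change of -1.08 (limma adjusted p = 0.0594), reading 36070 to 92160 in vehicle and 18079 to 45948 in SP2509. Of the 13 mRNAs of the mitochondrial genome, which this ribosome translates, 6 fell (median -1.06), among them mt-Nd2 and mt-Co3 at -1.08 and -1.14 (limma adjusted p = 0.0359 for both). Without vehicle replicate 1, 0 of the 13 were called lower (median -1.01), and without SP2509 replicate 6, 10 were (median -1.11). The libraries were made from poly-A RNA, and how completely mitochondrial rRNA was captured was not tested.

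Proteins of this ribosome with other names were 5 in number, and 1 rose. Gadd45gip1, a large-subunit protein also known as a nuclear partner of Gadd45 proteins, went from 219 ± 30.6 to 407 ± 92.2 (SD, n = 4 each; log2 fold change 0.84, limma adjusted p = 0.0129). The list median was 0.21, and Dap3, a GTP-binding protein of the small subunit, stood at 0.02.

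Factors that build or run the ribosome moved less. Of 27 assembly genes 1 rose and 1 fell (median 0.09, and below 0 with outside-mitochondrial scaling, with the muscle covariate or without SP2509 replicate 6). Noa1, a GTPase of mitochondrial ribosome assembly, rose by 0.72 (limma adjusted p = 0.0136), and Dhx30, an RNA helicase of mitochondrial RNA granules, fell by 0.35 (limma adjusted p = 0.0449). Of 14 translation factor genes 1 rose, the elongation factor gene Tufm (0.74, limma adjusted p = 0.0253), and Guf1 stood at -0.32 without passing the test (list median 0.17). Of 17 genes of mitochondrial transcription and mRNA handling 2 rose, Trmt10c of mitochondrial tRNA processing (0.55, limma adjusted p = 0.0222) and Grsf1 of the RNA granules (0.66, limma adjusted p = 0.0402). Their list median was 0.17, and Polrmt, the mitochondrial RNA polymerase, stood at -0.26 (limma adjusted p = 0.149). Of 9 biogenesis regulators 0 were called by limma, with a median of -0.02 (0.04 with TMM scaling) and 1 with an unadjusted p under 0.05 on 8 units. Those with the smallest p were Pprc1 and Ppargc1b, coactivators of mitochondrial biogenesis, at 0.37 and -0.72 (limma adjusted p = 0.0662 and 0.143), and Yy1, the factor of the YY1 motif, at 0.20 (limma adjusted p = 0.210).

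The import machinery carries these proteins into mitochondria, and its genes rose in larger numbers for their list. Of 24 tested import genes 11 rose and 0 fell, with a median of 0.49, among them the outer membrane receptor genes Tomm20 (0.72, limma adjusted p = 0.0118) and Tomm70a (0.62, limma adjusted p = 0.0136) and the matrix chaperone cofactor gene Grpel1 (0.96, limma adjusted p = 0.0136). Without vehicle replicate 1 the import genes called numbered 4 (median 0.45) and with the muscle covariate 7 (median 0.37). Of 82 nuclear respiratory chain genes 2 rose and 1 fell, although their median, 0.36, was close to that of the family. Among them Cox5a, a subunit of cytochrome c oxidase, rose by 1.22 on the log2 scale (limma adjusted p = 0.0377) and the lung isoform gene Cox4i2 fell by 0.78 (limma adjusted p = 0.0136). Without SP2509 replicate 6, 13 respiratory chain genes rose and 2 fell (median 0.23), and without vehicle replicate 1, 0 rose and 1 fell (median 0.22). With the keratinocyte covariate 28 rose. With the muscle covariate 0 rose, and the respiratory chain median was -0.03 beside 0.22 for the family. Of 83 cytosolic ribosomal protein genes 5 rose and 0 fell (median 0.25), and their mean log2 level was lowest in SP2509 replicate 6 (11.93, beside 12.04 to 12.26 in vehicle), where most of the mitochondrial family was highest. Without that library 41 cytosolic genes rose (median 0.35), without vehicle replicate 1 it was 1 (median 0.23), and with the muscle covariate 27 rose (median 0.43). Differences between these lists were not tested.

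**Figure D5:**
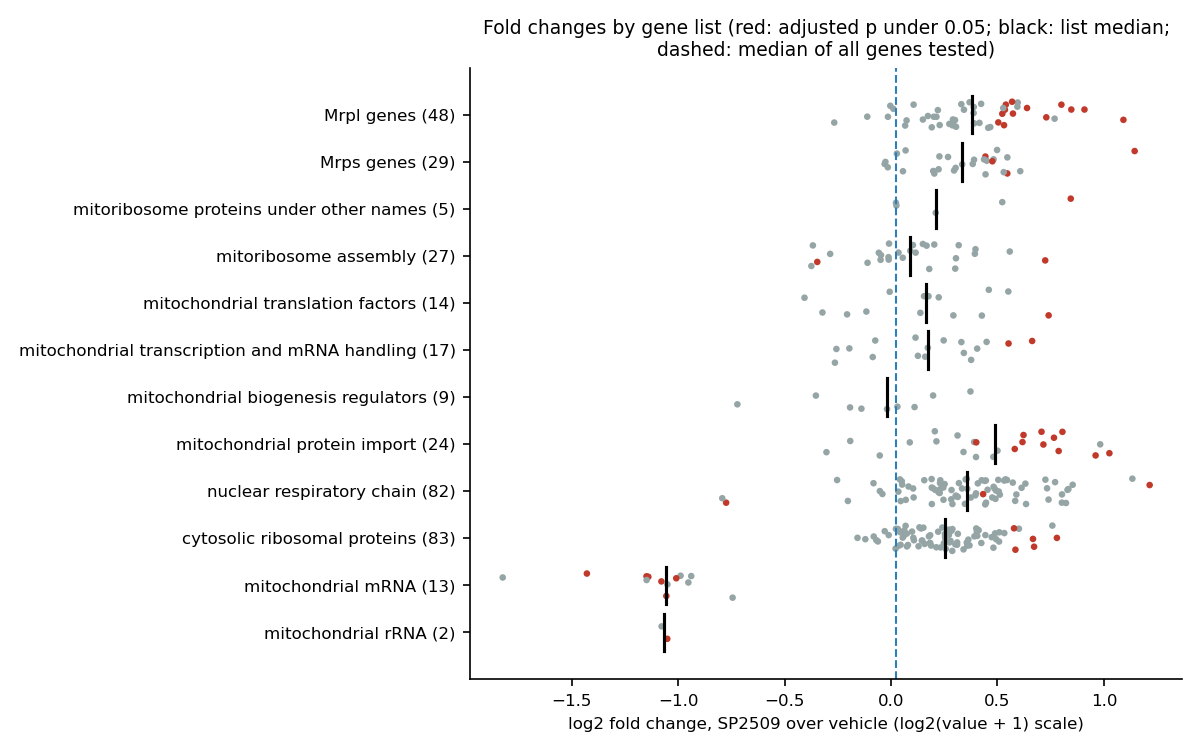
Log2 fold changes of SP2509 over vehicle by gene list, with the number of tested genes in brackets; each point is a gene, red marks an adjusted p under 0.05, black bars are list medians and the dashed line is the median of all genes tested (0.02). Import genes (median 0.49) lie farthest right and the mitochondrial mRNAs and rRNAs (medians -1.06 and -1.07) farthest left.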

How the data were processed

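RNA from 10 tongue libraries, 4 vehicle and 6 SP2509, was sequenced after enrichment for poly-A RNA with random hexamer priming, per the labels' protocols. HISAT2, featureCounts and mm10 are named in the submitters' processing notes. Annotation release and strand setting: not given in the sources used here. Signal values as deposited are gene counts divided by a size factor per library: 100% of values lay within 0.01 of a whole multiple of 1 read, and whole reads were recovered from them. IDs were matched to symbols for 27139 of 27151 genes. Coordinates and exon lengths, merged over all transcripts of a gene, come from GENCODE M21 (GRCm38).

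The test was limma (3.58.1, R 4.3.3) on log2(value + 1) with robust, trended empirical Bayes moderation, two-sided and without covariates, with Benjamini-Hochberg adjustment over 17088 genes. In SP2509 replicates 1 and 2, and 4 and 5, the spread between libraries relative to Poisson was 3.49 and 3.72 at 1000 to 5000 reads, beside 11.2 to 163 in the 19 other pairs within groups. Each close pair was counted once in means, SDs and n. The deposited value of 1 read was 0.727 to 0.873 in SP2509 and 0.898 to 1.85 in vehicle, where low values are therefore coarser.

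Members, gene lists and tests were chosen with earlier results of these data known. Genes are named by rule: up to 16 called members by smallest p, the 5 Mrpl and 5 Mrps with the smallest p, the 3 highest and 3 lowest per kb in vehicle, the 2 highest and 2 lowest fold changes, 9 genes whatever their values (Mrps18a, Mrps18b, Mrps18c, Mrps30, Mrps36, Mrpl12, Mrpl58, mt-Rnr1 and mt-Rnr2), and 2 to 4 genes of each pathway list by smallest p. Dap3 and the other members, neighbours and overlapping genes that are named were chosen after their values were seen.

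Alternatives were other pseudocounts, filters, scalings, edgeR (4.0.16), DESeq2 (1.42.0), covariates, a replicate block, merged pairs and left-out libraries. Others were a transcript length and GC correction and an adjusted p under 0.1, where no call can be lost. The limma and edgeR fits were tested on simulated independent libraries, without close pairs or an outlying library. Other steps were not part of that test. Figures were drawn with matplotlib 3.10.9 and tables made with pandas 2.3.3 under Python 3.11.15.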

Additional observations from a re-analysis of the deposited data

Results flagged for a closer look

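For 29 named genes and 3 medians over the family, each examined in vehicle and in SP2509 (64 groups of libraries), 1 library lay far from the others in 8 groups. Chance marks about 1 in 20 groups that are independent, and these genes share their libraries. The 6 SP2509 libraries were taken singly here, close pairs included. In 7 of the 8 the library was SP2509 replicate 6. Normalised reads there were 516 for Mrpl35 (other SP2509 libraries 304 to 381), 1204 for Mrpl12 (593 to 650), 994 for Mrps24 (621 to 728), 596 for Mrps36 (311 to 404), 1253 for Mrpl14 (710 to 862), 1223 for Mrpl3 (584 to 744) and 788 for Mrpl41 (525 to 587). This library also had the highest muscle markers (14.78), whose part in these values was not tested. The remaining case was Mrps30, at 191 in vehicle replicate 1 (other vehicle libraries 235 to 242).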

How the results depend on the processing

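The medians of all members, of Mrpl and of Mrps genes stayed above 0 under every alternative run, and that of all members ranged from 0.22 to 0.45. The number of members called higher, 17, depended on the setting. The share of genes tested that were called higher follows each count in brackets. The number was 11 with no filter (2.04%) and with quantile normalization (3.82%). It was 8 with scaling outside mitochondrial genes (1.74%) and with limma without trend (2.68%), and 28 with TMM scaling (7.54%). It was 9 with the muscle covariate (7.3%), 37 with the keratinocyte covariate (9.05%) and 34 at an adjusted p under 0.1 (10%). With close pairs as 1 sample it was 0 in limma and, chosen after seeing the data, 0 in edgeR on summed reads. There 41 and 44 members were higher at an unadjusted p under 0.05 and 0 lower. In limma 1980 of all 17088 genes tested were higher and 1652 lower at that p, and for edgeR this was not counted. DESeq2 on summed reads, also added later, called 17 members higher, beside 4.98% of genes tested. Without SP2509 replicates 4 and 5 the number of members was 6 (1.28% of genes tested). With pairs averaged and SP2509 replicate 6 left out, chosen after seeing the data, it was 8 (4.5%). Leaving out 1 library gave 4 (vehicle replicate 1, beside 1% of genes tested) to 23 (SP2509 replicate 6, beside 11.5%). The number was 9 and 8 without vehicle replicates 3 and 4 (2.21% and 2.83%). Without SP2509 replicate 1, 3, 4 or 5 it was 9 to 10 (2.24% to 2.72%). Members called lower were 0 to 1 over these, the 1 being Mrpl3 without SP2509 replicate 6. Genes called in all, 846 higher and 709 lower, became 553 and 479 with no filter, 458 and 448 with limma without trend, 1606 and 1394 with DESeq2, 1547 and 1128 with the keratinocyte covariate, 1288 and 575 with TMM scaling, 219 and 156 without SP2509 replicates 4 and 5, 171 and 107 without vehicle replicate 1, and 1971 and 1488 without SP2509 replicate 6.

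Same-numbered libraries did not pair: their deviations correlated at -0.20 to 0.13 over 4 pairs, and 1 vehicle replicate of the 4 correlated best with its own number. With a replicate block 10 members were called higher, beside 6.58% of genes tested.

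Among the genes named by rule the sign turned in 10 cases, all of genes not called. Over the 8 alternatives computed for every member, 17 of the 77 turned sign in at least 1, and 0 of these were among the genes called higher. Mrpl14 was -0.0142 with the muscle covariate and -0.00855 without vehicle replicate 1 and SP2509 replicate 6. Mrpl52 was -0.0778 with scaling outside mitochondrial genes, -0.00624 with the keratinocyte covariate, -0.0105 without vehicle replicate 4, -0.000273 without SP2509 replicate 4 (-0.0105 to 0.175 over the libraries left out singly), -0.0617 without SP2509 replicates 4 and 5, and -0.00131 with the length and GC correction. Mrpl41 was 0.0114 with the keratinocyte covariate, and Mrps18c -0.0530 with the muscle covariate. The cause of these changes was not tested.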
